A study of Mus musculus with 30 samples.

Results

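The wound-induced keratins are the 4 genes Krt6a, Krt6b, Krt16 and Krt17, taken by symbol from a table of 20321 mouse genes. All 4 passed the filter on low counts that kept 13793 genes for testing, and the table holds 46 other genes of the keratin family. RNA-seq was done on the third hindlimb digit of 30 adult male C57Bl/6 mice in which at most 33% of the distal phalanx (P3) had been amputated and the wound left to heal without sutures. Digits were collected from 3 mice at 0 h (the digit taken at amputation), and on the first day also at 3 h, 6 h, 12 h and 24 h. Later collections were at 3 d, 14 d and 21 d, with 3 mice each, and at 7 d, with 6. The labels name no engineered allele and no treatment but the amputation, for which the mice were anesthetized, and each library is 1 whole digit tip from 1 mouse, so that skin, nail, bone, marrow and wound cells are mixed. P-values measure the spread between these mice. The titles of mouse 3 at 0 h and mouse 2 at 12 h carry the same animal tag and date. Both were treated as separate mice, as in the study's count.

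Keratins build the intermediate filaments of epithelial cells from pairs of a type II and a type I protein. Krt6a and Krt6b encode type II keratins, and Krt16 and Krt17 encode their type I partners. In resting skin these genes are used in the nail bed, the hair follicle and the thick epidermis of the paw, and they are known as the keratins that epidermal cells switch on at the edge of a wound. In a digit tip with its nail and pads they are therefore also made without injury, and the 0 h digits give that level.

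The genes lie in both keratin clusters of the mouse genome. On GRCm38, Krt6a (ENSMUSG00000058354) is at chr15:101689910-101694307 and Krt6b (ENSMUSG00000023041) at chr15:101676023-101680287, both on the minus strand with 9 exons and neighbours of each other, with Krt5 beyond Krt6a. Krt16 (ENSMUSG00000053797) is at chr11:100246091-100248902 and Krt17 (ENSMUSG00000035557) at chr11:100256217-100261029, both on the minus strand with 8 exons, followed by Krt42. The antisense gene Gm49428 and the miRNA gene Gm44342 overlap Krt6a on the other strand and the miRNA gene Gm44383 overlaps Krt6b, and since no strand setting of the counting is given in the sources used here, reads of Krt6a and of Gm49428 cannot be told apart with certainty.

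Sequence sets how well the 4 genes can be separated by reads of 65 bases. The coding sequences of Krt6a and Krt6b were identical at 1625 of 1662 aligned bases (97.8%), and Krt16 and Krt17 at 997 of 1286 (77.5%). The longest coding stretch without a difference between Krt6a and Krt6b is shown because no read within it can name its gene. It has 280 bases in exon 1, at chr15:101693936-101694215 in Krt6a and chr15:101679911-101680190 in Krt6b, and is written 5′ to 3′ on the coding strand.
Krt6a and Krt6b, shared: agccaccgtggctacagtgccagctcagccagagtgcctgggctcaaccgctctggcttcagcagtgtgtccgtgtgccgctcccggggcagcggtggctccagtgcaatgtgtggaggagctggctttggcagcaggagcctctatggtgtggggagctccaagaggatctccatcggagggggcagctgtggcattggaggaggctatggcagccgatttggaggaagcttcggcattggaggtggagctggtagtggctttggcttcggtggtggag

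The 80-base coding stretches that differ most within each pair, among those that lie in 1 exon and align without a gap, are shown next as the contrast to the shared stretch. Some windows outside these limits, in the UTRs among others, differ more. Capitals mark the bases that differ within a pair, 12 between Krt6a and Krt6b and 29 between Krt16 and Krt17. They lie in exon 4 (chr15:101692484-101692563 in Krt6a, chr15:101678303-101678382 in Krt6b) and in exon 5 (chr11:100247136-100247215 in Krt16, chr11:100257777-100257856 in Krt17).
Krt6a: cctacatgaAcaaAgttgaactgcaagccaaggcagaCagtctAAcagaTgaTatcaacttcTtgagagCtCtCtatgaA
Krt6b: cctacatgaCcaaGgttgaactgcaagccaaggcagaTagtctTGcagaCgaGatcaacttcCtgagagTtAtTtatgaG
Krt16: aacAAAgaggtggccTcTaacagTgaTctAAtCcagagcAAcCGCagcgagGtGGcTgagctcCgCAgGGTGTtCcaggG
Krt17: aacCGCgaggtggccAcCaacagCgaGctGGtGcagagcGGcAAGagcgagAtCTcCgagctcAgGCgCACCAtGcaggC

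Over the whole transcripts, UTRs included, 39.2% of the 65-base windows of Krt6a were identical to a window of Krt6b, and 58.7% matched Krt6b within the 2 mismatches that the authors' alignment allowed. For Krt6b against Krt6a these shares were 39.9% and 59.9%. Krt16 and Krt17 shared 0.5% of windows within 2 mismatches, but Krt16 shared 23.7% and Krt17 14.5% with Krt14, the basal keratin of epidermis. RSEM divides such reads by estimation, so the split between Krt6a and Krt6b is less certain than the sum of the pair. The levels of Krt16 and Krt17 depend on how reads shared with Krt14 are divided. The sum of Krt6a and Krt6b is not free of sharing either. Within 2 mismatches, 9.1% of the windows of Krt6a and 8.6% of those of Krt6b matched Krt5.

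**Figure D1:**
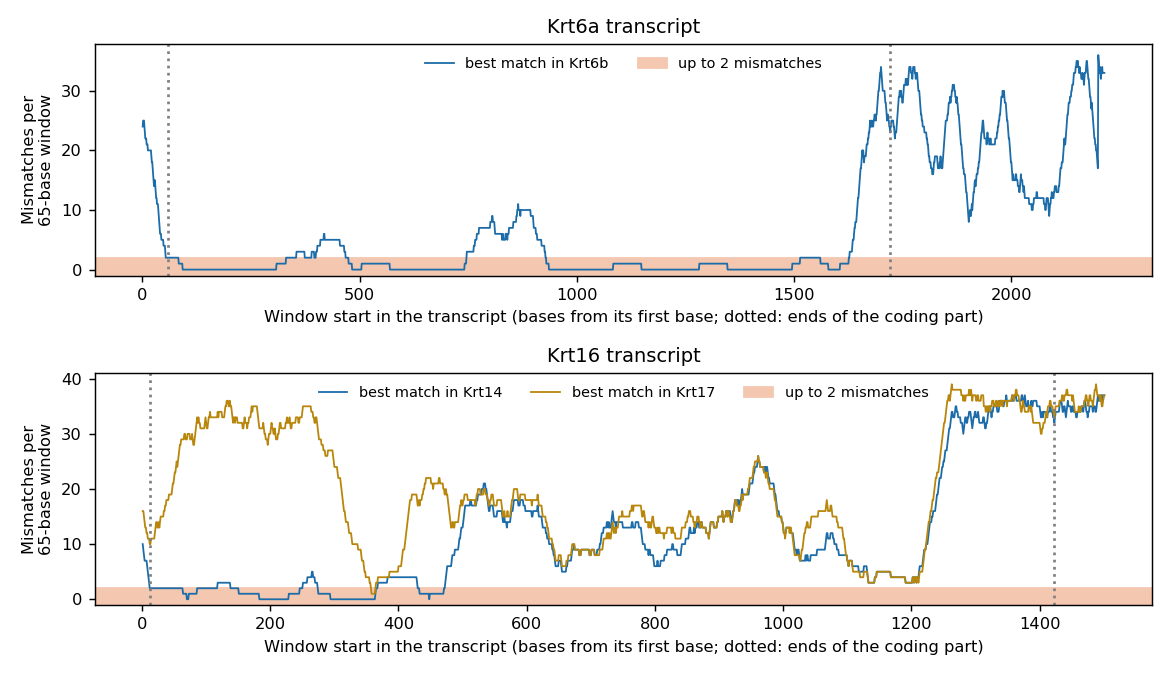
Mismatches between each 65-base window of a wound keratin transcript (window start on the x axis, in bases) and the closest window of the other keratin transcript named in each legend; windows at or below 2 mismatches can share reads. For Krt6a against Krt6b 58.7% of windows lie there, and for Krt16 against Krt17 0.5%.

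The total expected count per mouse ran from 3167625 to 16277816. Dates in the sample titles fall into an earlier campaign (July to August, 16 mice) and a later one (November to January, 14 mice), whose median totals were 5083528 and 9836324. Every mouse at 3 h and 12 h belongs to the earlier campaign and every mouse at 21 d to the later one, whereas the 0 h group holds 1 earlier and 2 later mice. The left foot is given for 3 mice, all at 7 d, and the right foot for the other 27. Keratinocyte markers were present in every library: the summed level of 12 of them (Krt5, Krt14, Trp63 and others) was 20740 to 29420 TPM (a share of all transcripts, corrected for gene length and scaled to the same total in every library). None of the 12 was at 0 in all mice of a time point, which does not speak for single libraries.

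All 4 wound keratins reached their highest mean level at 21 d, and 21 d was the time at which they passed the test against 0 h. Over all genes tested, 11.1% had their highest mean at 21 d. Levels are given here as CPM (counts relative to the total of the library) scaled by edgeR's TMM factors, and differences were tested by edgeR's quasi-likelihood F-test, with p adjusted by Benjamini and Hochberg over 13793 genes.

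Krt6a, the more abundant of the type II genes at 0 h, was at 1396, 1364 and 1880 CPM in the 3 mice at 0 h (1547 ± 289, SD, n = 3). At 21 d it was at 7667, 3789 and 2174 CPM. All 3 mice at 21 d lay above all 3 at 0 h, but they were far apart. At 12 h the values were 1888, 3691 and 2556 CPM, again all above 0 h (as for 9.82% of all genes), and at 14 d they were 3157, 1982 and 2312 CPM, also above 0 h (as for 13.6%). At 3 h the mice were at 1806, 2304 and 3065 CPM, at 6 h at 2825, 1899 and 1834 CPM, and at 24 h at 2599, 1730 and 1829 CPM. These times overlapped with 0 h, as did 3 d with 1720, 1947 and 1455 CPM. The lowest mean was at 7 d, where the 6 mice ran from 1021 to 1639 CPM with a median of 1444 CPM, and 3 of them lay below every mouse at 0 h.

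Krt6b, its near copy, was lower than Krt6a at 0 h, with 821, 712 and 1023 CPM (852 ± 158, SD, n = 3). At 21 d it was at 9262, 4138 and 1937 CPM, in the same order of mice as Krt6a. It stayed near the 0 h level at 3 h, with 722, 717 and 1207 CPM. At 6 h the mice were far apart, at 1207, 1927 and 606 CPM, while at 12 h all 3 were above 0 h at 1073, 2122 and 1036 CPM. At 24 h they were at 1555, 791 and 1273 CPM and at 3 d at 2716, 1556 and 982 CPM, with 2 of 3 mice above 0 h at both times. At 7 d the level ran from 689 to 1837 CPM with a median of 1607 CPM, and 4 of 6 mice were above 0 h. At 14 d the values of 3257, 1495 and 1672 CPM were all above 0 h.

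Krt16, a type I partner, had 1064, 838 and 1840 CPM at 0 h (1247 ± 525, SD, n = 3), the widest relative spread of the 4 genes at that time. At 21 d it was at 10020, 4442 and 2396 CPM, all above 0 h. At no other time were all mice above the highest mouse at 0 h. The values were 1182, 1626 and 2232 CPM at 3 h and 2347, 2459 and 1309 CPM at 6 h. At 12 h they were 1732, 3102 and 1512 CPM and at 24 h 2127, 1103 and 1854 CPM. At each of these times at least 1 mouse lay inside the range at 0 h. At 3 d the mice were at 1977, 1355 and 896 CPM, at 7 d from 687 to 2273 CPM with a median of 1603 CPM, and at 14 d at 3559, 1610 and 1768 CPM.

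Krt17 was the least abundant of the 4, with 264, 185 and 278 CPM at 0 h (242 ± 50.1, SD, n = 3). At 21 d it was at 926, 577 and 329 CPM, and again the groups did not overlap. At 3 h it had 268, 323 and 222 CPM, and at 6 h 322, 305 and 216 CPM, levels that overlapped with 0 h. It reached 253, 570 and 476 CPM at 12 h, and at 24 h, with 365, 353 and 305 CPM, all mice were above 0 h (as for 8.77% of all genes). At 3 d the mice were at 505, 339 and 213 CPM. At 7 d the level ran from 252 to 638 CPM with a median of 456 CPM, and 5 of 6 mice were above 0 h. At 14 d the 3 mice lay close together at 410, 395 and 434 CPM, all above 0 h.

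**Figure D2:**
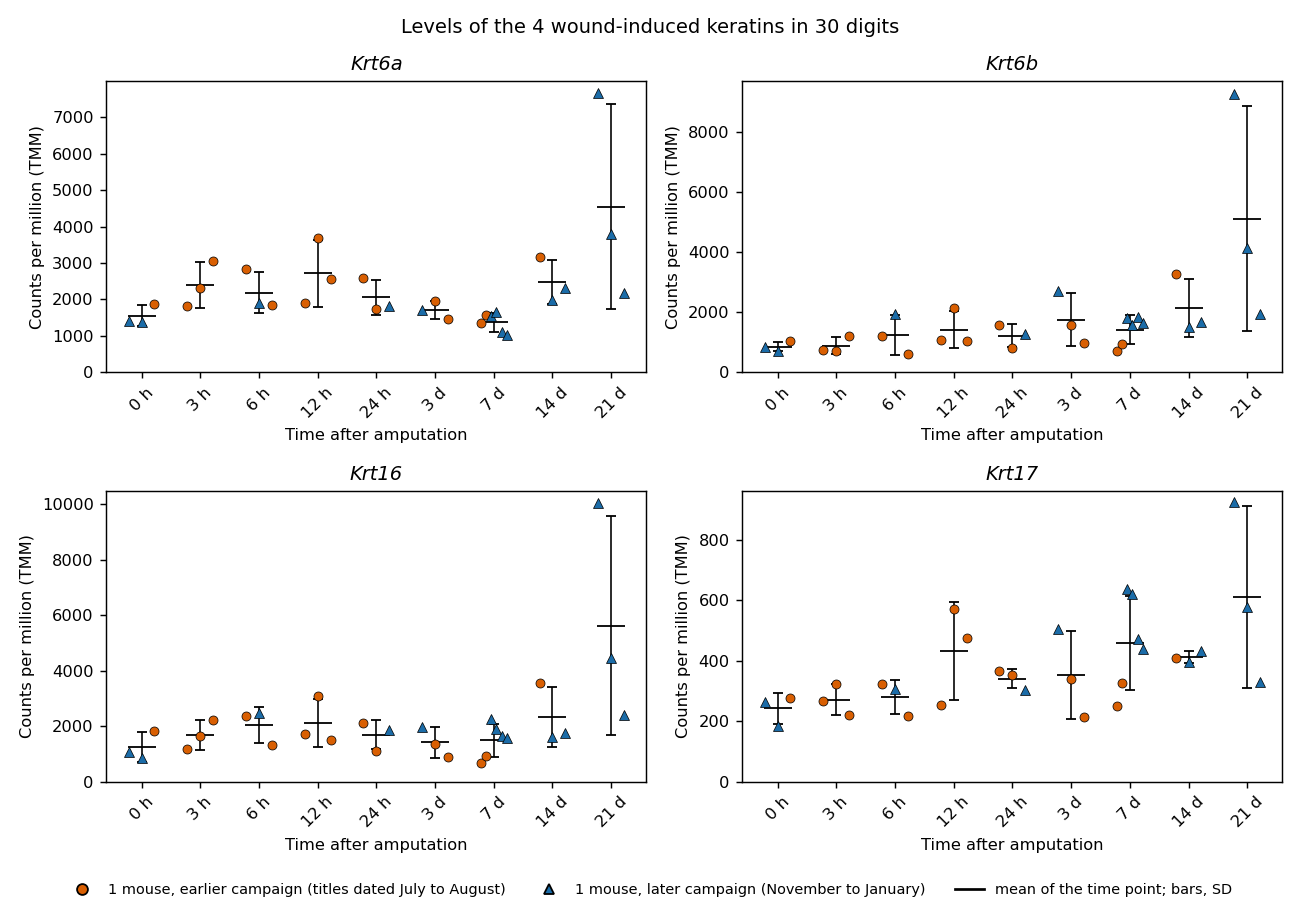
Level of each wound keratin in each of the 30 mice (y axis, TMM-scaled CPM) by time after amputation (x axis), with the campaign of the mouse by symbol and the mean and SD of each time. All 4 genes have their highest mean at 21 d, where 1 mouse (7667 CPM for Krt6a and 10020 CPM for Krt16) stands above the other two.

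Across the 9 times, the F-test called Krt6b (adjusted p = 0.00263), Krt6a (adjusted p = 0.00317) and Krt16 (adjusted p = 0.0124), and did not call Krt17 (adjusted p = 0.0794). Thus 3 of 4 passed, where 9.01% of all genes tested did. DESeq2's likelihood ratio test called all 4, and 18.1% of all genes. The highest mean was 6.00 times the lowest for Krt6b, 4.50 for Krt16, 3.32 for Krt6a and 2.52 for Krt17. The lowest mean was at 0 h for 3 of the genes and at 7 d for Krt6a.

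Against 0 h, all 4 rose at 21 d, where 1.73% of all genes tested rose. Krt6b rose by 2.59 on the log2 scale (6.00-fold, SE 0.51, adjusted p = 0.00314). Krt16 rose by 2.17 (4.50-fold, SE 0.48, adjusted p = 0.0106), Krt6a by 1.55 (2.94-fold, SE 0.33, adjusted p = 0.00791) and Krt17 by 1.33 (2.52-fold, SE 0.35, adjusted p = 0.0383). Each gene was higher in 3 of 3 mice than in any mouse at 0 h, which held for 12.5% of all genes. Their median change was 1.86, where the median over all genes was 0. With the mice of 0 h and 21 d alone, Krt6b and Krt16 were called and Krt6a (adjusted p = 0.0762) and Krt17 (adjusted p = 0.0650) were not, and limma on log2(TPM + 1) or log2(TPM + 0.1) also called only Krt6b and Krt16.

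These calls rest on mouse 1 of the 21 d group, the highest for each gene. Without it none of the 4 was called: the changes were 1.83 for Krt6b (adjusted p = 0.0770), 1.45 for Krt16 (adjusted p = 0.260), 0.95 for Krt6a (adjusted p = 0.285) and 0.91 for Krt17 (adjusted p = 0.623), and the F-test then called Krt6a alone. Without mouse 1 or without mouse 2 of the 0 h group, Krt6b was called (adjusted p = 0.0326 and 0.0324), and Krt6a (0.0754 and 0.0649), Krt16 (0.0892 and 0.0939) and Krt17 (at most 0.235) were not. The direction was upward at 21 d for all 4 genes with any single mouse left out, and Krt17 also lost its call without mouse 3 at 0 h (adjusted p = 0.0989) or mouse 2 at 21 d (adjusted p = 0.0801).

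At the other 7 times none of the 28 combinations of gene and time passed edgeR's test. Of all genes, 0.254% passed at 3 h, 0.189% at 6 h, 0.167% at 12 h, 0.493% at 24 h, 0.551% at 3 d, 2.34% at 7 d and 1.61% at 14 d. At an unadjusted p under 0.05 there were 7 of 28, where 9.15% of all combinations had such a p. DESeq2 called 1, Krt17 at 7 d, where it called 4.32% of all genes. At 12 h the changes were alike, from 0.73 to 0.84 on the log2 scale, with adjusted p from 0.569 to 0.751. At 14 d they were 1.33 for Krt6b, 0.89 for Krt16, 0.77 for Krt17 and 0.68 for Krt6a (adjusted p 0.264 to 0.615), while edgeR on the mice of 0 h and 14 d alone called Krt6b and Krt17 (adjusted p = 0.0463 each). At 7 d Krt17 was at 0.92 (SE 0.31, adjusted p = 0.133) and Krt6a at -0.18 (SE 0.28, adjusted p = 0.863). The 95% intervals at 12 h were 0.14 to 1.48 for Krt6a, -0.26 to 1.71 for Krt6b, -0.19 to 1.71 for Krt16 and 0.13 to 1.55 for Krt17, without adjustment for the number of genes. Those of Krt6b and Krt16 include 0. The gene's own estimated change at 21 d lies above the interval for Krt6a (1.55), Krt6b (2.59) and Krt16 (2.17). For Krt17 (1.33) it lies inside. The intervals at 21 d were 0.87 to 2.24 for Krt6a, 1.55 to 3.62 for Krt6b and 1.18 to 3.16 for Krt16. Each overlaps the gene's interval at 12 h, and 21 d against 12 h was not tested.

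**Figure D3:**
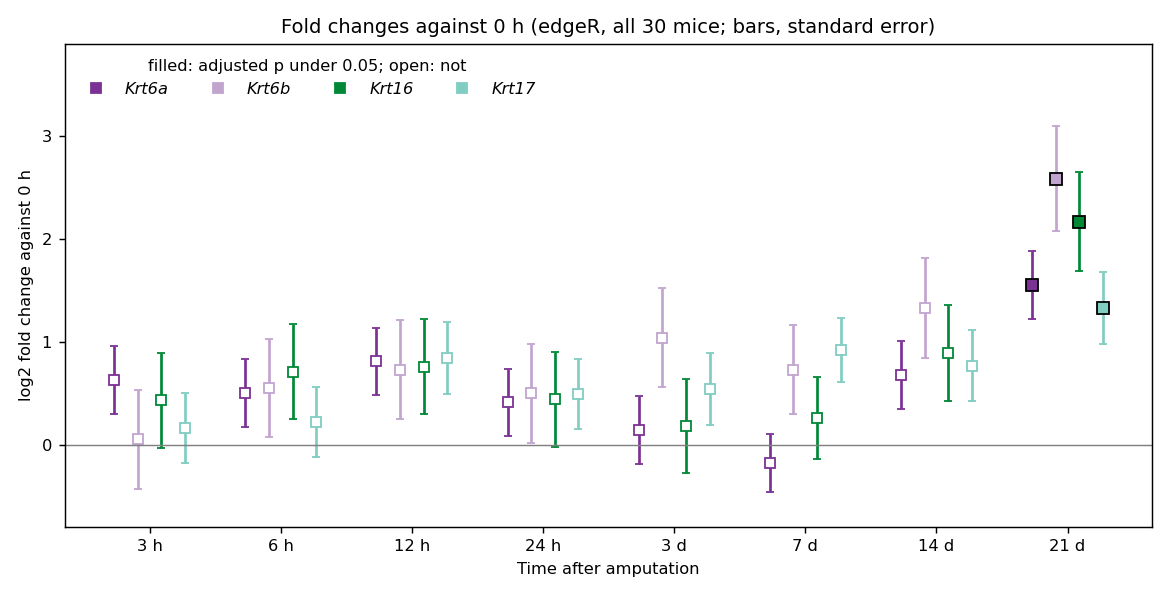
Log2 fold change of each wound keratin against 0 h (y axis) at the 8 later times (x axis) from edgeR's fit of all 30 mice, with bars of 1 standard error; filled symbols have an adjusted p under 0.05. At 21 d the 4 genes lie between 1.33 and 2.59 and are filled, and no earlier point is.

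Between successive times none of the 28 combinations passed edgeR's test, and DESeq2 called none either, where 0.0963% of all combinations passed edgeR's. At an unadjusted p under 0.05 there were 4, where 7.91% of all combinations had such a p. These were Krt6a at 14 d against 7 d (0.86, SE 0.28, adjusted p = 0.176) and Krt6a, Krt6b and Krt16 at 21 d against 14 d (0.87, 1.26 and 1.28, adjusted p = 1 for each). At 21 d, 2 of 3 mice lay above all 14 d mice for each of the 4 genes, and the third lay inside the 14 d range for Krt6a, Krt6b and Krt16 and below it for Krt17. For each gene, the ranges of any 2 neighbours in the order of mean level overlapped, so that the order itself is not fixed by these mice.

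For 3 of the 4 genes the change from 0 h had different values in the 2 campaigns, at 7 d and at other times. On the log2(CPM + 1) scale and against the 0 h mice of the same campaign, Krt16 was at -1.21 at 7 d in the earlier campaign and at 0.95 in the later one, and at 24 h at -0.26 and 0.97. Krt6b at 7 d was at -0.35 and 1.16, and Krt17 at 0.04 and 1.27. Krt6a was at -0.37 and -0.09. At 7 d the campaigns also differ in foot, since 3 of the 4 later mice are left-foot digits and both earlier ones are right. Without the left-foot mice Krt16 was at -0.19 at 7 d in the fit of all times, Krt6b at 0.46 and Krt17 at 0.55, none of them called. The earlier campaign has a single 0 h mouse, which was the highest of the 3 for all 4 genes. The edgeR F-test of time by campaign, over the 21 mice at the 6 times with both campaigns, gave unadjusted p = 0.000628 for Krt16 and 0.00122 for Krt6b, but none of the 4 passed the adjustment (adjusted p = 0.0581 for Krt16, 0.0731 for Krt6b, 0.259 for Krt17 and 0.966 for Krt6a), where 0.883% of 13587 genes did. Within the later campaign, which holds all the 21 d mice, the differences of 21 d from 0 h were 2.46 for Krt6b, 2.33 for Krt16, 1.53 for Krt6a and 1.34 for Krt17. A fit of those 14 mice alone, chosen after seeing the data, called Krt6b (2.73, adjusted p = 0.0144) and Krt16 (2.55, adjusted p = 0.0160) and did not call Krt6a (1.71) or Krt17 (1.43, adjusted p = 0.0727, the larger of the 2), where 1.36% of genes were called. In that campaign mice 1 and 2 at 21 d are dated January, mouse 3 at 21 d December and both 0 h mice November. No mouse at another time is dated January, and mouse 3 was the lowest at 21 d for all 4 genes. How much of the difference goes with date was not tested.

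Because TPM is per length, it allows the genes to be set against each other. Together they made up 0.330 to 0.599% of all transcripts at 0 h and 0.719 to 2.79% at 21 d, with 0.653 to 1.16% at 14 d. At 0 h Krt16 and Krt6a were close, at 1123 to 2667 and 1262 to 1882 TPM, Krt6b was lower at 668 to 1038 TPM and Krt17 lowest at 250 to 406 TPM. At 21 d the order of the medians was Krt16 (5924 TPM), Krt6b (3862 TPM), Krt6a (3489 TPM) and Krt17 (777 TPM).

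The ratio of both type II genes to each other differed between times, and at several times between campaigns, by value. The ratio of Krt6b to Krt6a was 0.529 to 0.596 at 0 h, 0.315 to 0.405 at 3 h, 0.684 to 1.60 at 3 d, 0.733 to 1.05 at 14 d and 0.903 to 1.22 at 21 d. It was below all 0 h mice in 3 of 3 mice at 3 h and above them in 3 of 3 at 3 d, 14 d and 21 d. At 7 d it was 0.514 to 0.605 in the 2 mice of the earlier campaign and 0.970 to 1.69 in the 4 of the later one. Earlier and later values were 0.335 to 0.433 and 1.03 at 6 h, and 0.464 to 0.607 and 0.706 at 24 h. At 3 d they were 0.684 to 0.811 and 1.60. The order was the other way at 14 d (1.05, and 0.733 to 0.765), and at 0 h they were 0.552, and 0.529 to 0.596. All mice at 3 h and at 12 h (0.411 to 0.583) are earlier and all at 21 d later. How much of these differences goes with campaign was not tested. A two-sided exact permutation test, added after the ratios were seen, gave p = 0.1 at 3 h, 3 d, 14 d and 21 d, the smallest that 3 against 3 mice can give, and an adjusted p of 0.19 over the 8 times. With reads of both genes added, the sum rose 4.03-fold at 21 d (adjusted p = 0.00211) and was at 1.16 times the 0 h level at 7 d (adjusted p = 0.851). The sum does not depend on how reads were divided between both genes.

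The ratio of Krt16 to Krt17 was lower at 7 d and higher at 21 d than at 0 h by value. It was 3.99 to 6.57 at 0 h, 2.71 to 3.55 at 7 d and 7.22 to 10.7 at 21 d. All 6 mice at 7 d were below all mice at 0 h (exact permutation test added after seeing the data, p = 0.0119, adjusted p = 0.0952 over 8 times), and this held in both campaigns, at 2.71 to 2.79 in the earlier and 3.00 to 3.55 in the later one. At 21 d all 3 were above 0 h (exact p = 0.1, adjusted p = 0.4). The summed type II over the summed type I level stayed between 0.796 and 1.52 over all 30 mice, and at 21 d it was 1.05 to 1.10, inside the 0 h range of 0.950 to 1.41.

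**Figure D4:**
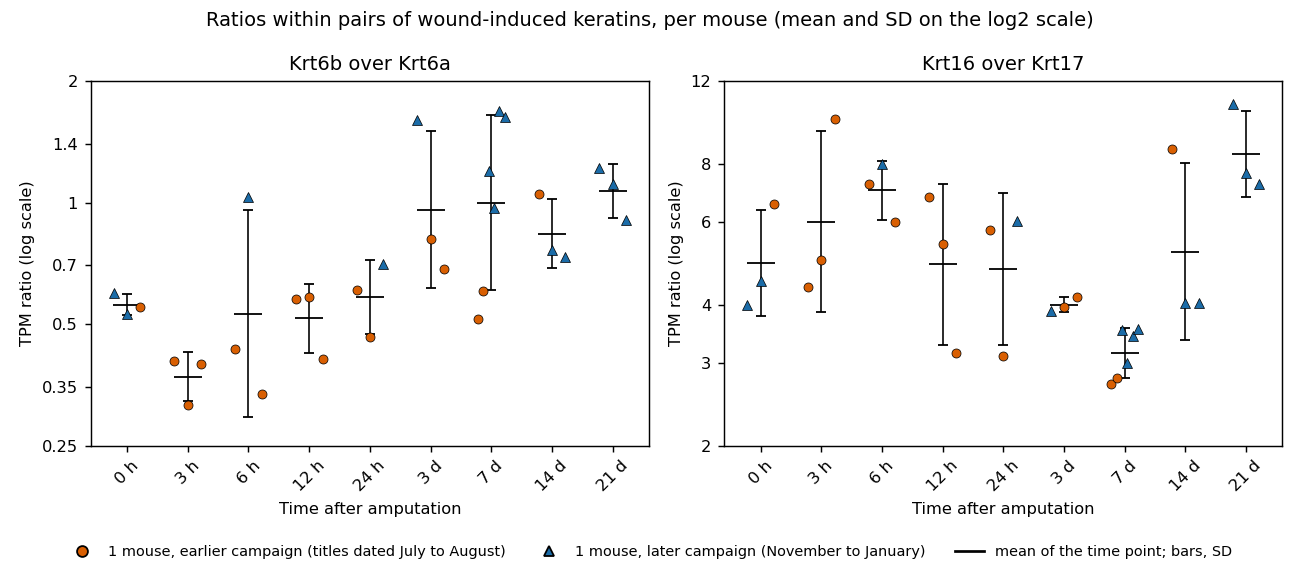
Ratio of TPM of Krt6b to Krt6a (left) and Krt16 to Krt17 (right) in each mouse, on a log axis, by time, with the mean and SD. The first ratio is 0.529 to 0.596 at 0 h and 0.903 to 1.22 at 21 d; the second is 2.71 to 3.55 at 7 d and 7.22 to 10.7 at 21 d.

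In whole digits, fewer keratinocytes and less RNA per keratinocyte cannot be told apart, so each gene was also set against 12 keratinocyte markers of the same library. The summed level of those markers was 26140 to 29360 TPM at 0 h and 23270 to 25520 TPM at 21 d. None of the 12 was called against 0 h at any time (0 of 96 combinations, with 8 higher and 3 lower at an unadjusted p under 0.05). Over all genes, 9.15% of combinations at the 7 times before 21 d had such a p, and a share over all 8 times was not computed. The F-test over the 9 times called 1 of the 12, Sfn (adjusted p = 0.0224), where 9.01% of all genes passed. Krt5 and Krt14, 2 of the 12, share windows with the wound keratins as given above. Relative to the 12 markers, Krt6b was higher at 21 d than at 0 h by 2.41 on the log2 scale, Krt16 by 2.10, Krt6a by 1.48 and Krt17 by 1.33, each in 3 of 3 mice. At 14 d the differences were 0.93 to 1.51, each also in 3 of 3 mice. The exact permutation p was 0.1 for each of these, the smallest possible with 3 mice a group, and 0.229 after adjustment over 32 combinations. Krt17 at 7 d was higher by 0.94 in 6 of 6 mice (exact p = 0.0119, the smallest possible there, adjusted p = 0.229). None of the 32 had an adjusted p under 0.05, and 1 had an unadjusted one. The share of all genes separated from 0 h in this way was not computed for this ratio. For CPM it was 13.6% at 14 d and 12.5% at 21 d.

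**Figure D5:**
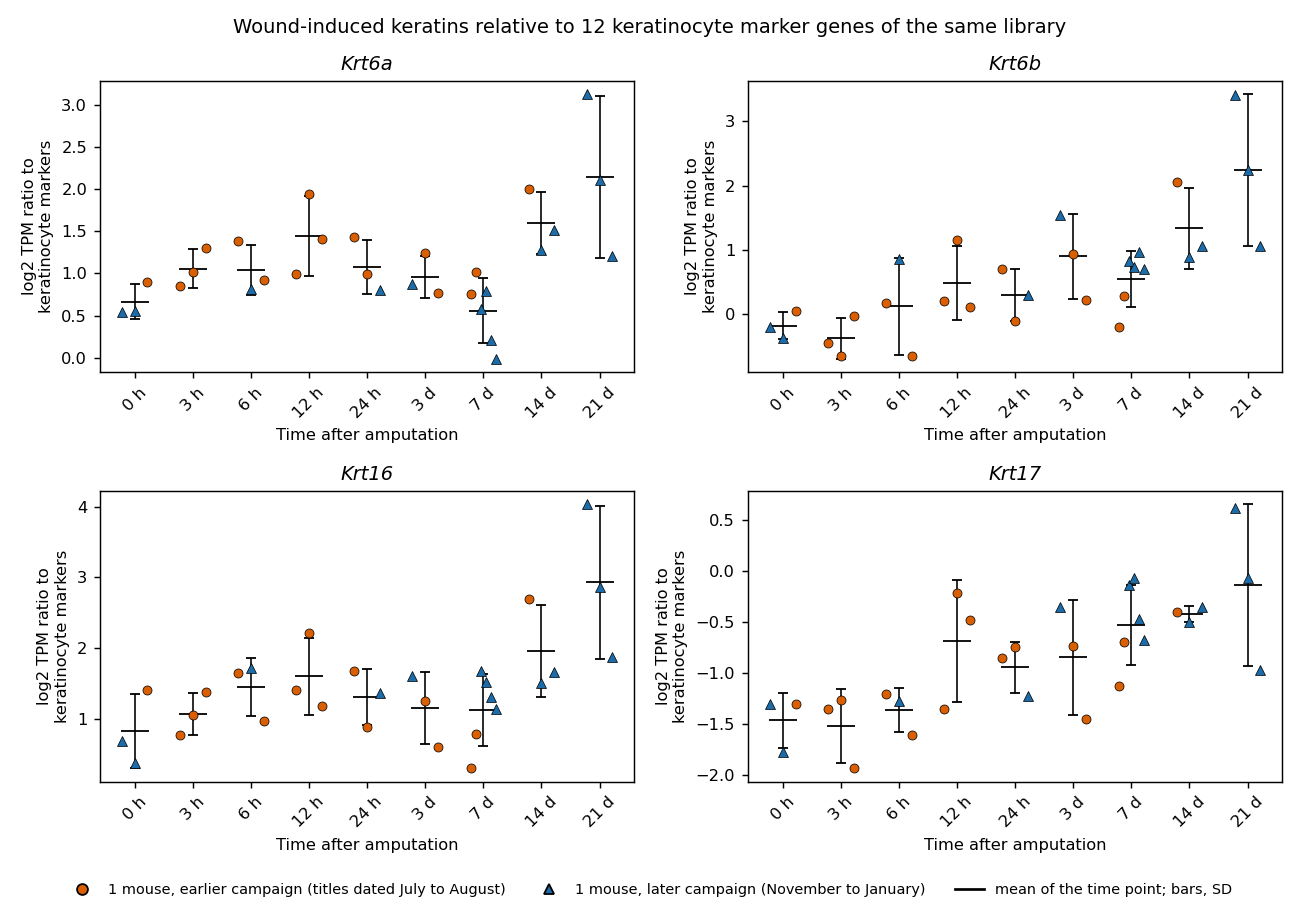
Log2 ratio of the TPM of each wound keratin to the geometric mean of 12 keratinocyte markers in the same library (y axis), per mouse and time, with the mean and SD. At 14 d and 21 d every mouse is above every mouse at 0 h for all 4 genes. The share of all genes that do so on this ratio was not computed.

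None of the 16 structural keratins of epidermis and simple epithelia (Krt5, Krt14, Krt1, Krt10 and others) was called against 0 h at any time (0 of 128 combinations, with 1 higher and 18 lower at an unadjusted p under 0.05), and their median at 21 d was -0.85 beside 0 for all genes. The F-test over the 9 times called 2 of the 16, Krt80 (adjusted p = 0.0336) and Krt15 (adjusted p = 0.0476), where 9.01% of all genes passed. Krt10, the type I keratin of differentiating epidermis, was at 7330, 14600 and 21460 TPM in mice 1, 2 and 3 at 21 d and at 23250 to 25430 TPM at 0 h. None of 10 suprabasal markers was called (0 of 80, with 16 lower at an unadjusted p under 0.05), and their summed level at 21 d was 19290, 36040 and 49090 TPM in the same order, beside 58440 to 61600 TPM at 0 h. None of 12 nail matrix and hair cortex genes was called (0 of 96, with 23 higher at an unadjusted p under 0.05). Their median at 21 d was 1.49, and their summed level was 32890, 17210 and 14180 TPM in mice 1, 2 and 3, beside 7005 to 10540 TPM at 0 h. The 3 mice of the 21 d group thus had the same order for the 4 wound keratins and for the nail genes, and the opposite order for the suprabasal markers; how much of the rise in the wound keratins goes with nail epithelium in the sample was not tested. The 8 eccrine sweat gland markers were not called either (0 of 64, with 4 lower at an unadjusted p under 0.05), with a sum of 47.0 to 213 TPM at 21 d and 261 to 323 TPM at 0 h. Over all genes, 9.15% of combinations at the 7 times before 21 d had such a p, in either direction. A share of all genes over the 8 times of these lists was not computed.

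A list of signals that are known to induce these keratins in skin was measured next. It also holds Il1rn, the gene of the IL-1 receptor antagonist, which is not an inducer. Of 15 genes of this list tested, Il6, Lif and Il1b rose. Il6, an inflammatory cytokine, was called from 3 h to 7 d and highest at 24 h with a mean of 46.8 CPM, where the 0 h mice had 1, 0 and 0 counts. Lif, a cytokine of the same family, was called from 6 h to 7 d and was highest at 24 h, at 79.7 to 185 CPM beside 1.92 to 2.99 CPM at 0 h. Il1b was called from 24 h to 21 d, but at 21 d only 2 of 3 mice were above 0 h. In all, 16 of 120 combinations were higher and none was lower. At 24 h, 3 d and 7 d, 3 of the 15 genes were higher each time. Of the 13793 genes tested, 56, 67 and 232 were higher at these times. A share of all genes pooled over the times was not computed, for this list or for those below. The growth factors Hbegf, Areg and Ereg, ligands of the EGF receptor, were not called against 0 h. Of 12 receptors, Tgfbr1, a TGF-beta receptor, rose at 7 d (1.16, SE 0.23, adjusted p = 0.00470) in 6 of 6 mice and the other 11 were not called.

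Of 21 transcription regulators, the AP-1 genes Fos, Fosb and Jun fell. Fos was at a mean of 597 CPM at 0 h and 51.3 CPM at 12 h (-3.54, SE 0.50, adjusted p = 0.000387), and it fell at each time from 3 h to 14 d. Nfkbiz, a regulator of NF-kappa-B target genes, and Myc rose at 3 h (1.46 and 1.27, adjusted p = 0.0151 for both). Ets1 rose at 7 d and at 21 d (0.96, SE 0.24, adjusted p = 0.0320). Over all times 4 combinations of gene and time were higher and 21 lower. At 3 h 2 of the 21 regulators were higher and 2 lower, beside 19 and 16 of the 13793 genes tested. At 7 d 1 was higher and 4 were lower, beside 232 and 91 of all genes.

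Among the 33 alarmins and activated keratinocyte genes tested, 33 of 264 combinations were higher and 2 lower. At 7 d 7 of the 33 were higher and 2 lower, beside 232 and 91 of the 13793 genes tested. At 21 d 6 were higher and none was lower, beside 239 and 29 of all genes. S100a9, which codes for a subunit of calprotectin, was called at 24 h, 3 d, 7 d, 14 d and 21 d, and at 21 d it was at 57.5, 26.1 and 0.684 CPM in mice 1, 2 and 3, beside 0.640 to 0.800 CPM at 0 h. The protease inhibitor gene Slpi and Plaur, the urokinase receptor gene, also rose at 21 d (3.91 and 2.29, adjusted p = 0.00314 and 0.00233), as did the proteinase genes Mmp9 and Mmp13, which bone and marrow cells use too. The 2 combinations that fell were Sprr1b (-1.46, adjusted p = 0.0198) and Tgm1 (-0.63, adjusted p = 0.0155) at 7 d, genes of the cornified envelope named after their values were seen. At 21 d the median change was 0.13 for the inducer list with Il1rn, 0.07 for the receptors and 0.04 for the regulators, beside 0 for all genes. For the alarmins and activated genes it was 0.28, or 0.12 with the genes that had at most 3 counts in every 0 h mouse placed at their lower bound. The neutrophil markers were not called (0 of 48, with 11 higher at an unadjusted p under 0.05), and their summed level of 11.6 to 19.9 TPM at 21 d was in the range of 13.5 to 22.2 TPM at 0 h but for its lowest mouse.

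At 21 d the tissue around the epithelium also differed from 0 h. Of 7 fibroblast markers 4 rose, with a summed level of 13520 to 22630 TPM beside 3039 to 4786 TPM at 0 h, and of 8 osteoblast and osteocyte markers 3 rose, with 2810 to 3439 TPM beside 234 to 458 TPM. Of 5 erythroid markers 3 fell. Of the 13793 genes tested, 239 rose and 29 fell at 21 d. Of the macrophage and endothelial markers none was called at 21 d (1 at an unadjusted p under 0.05), and at 7 d Csf1r and Cdh5 rose. The fibroblast markers were highest in mouse 1 and lowest in mouse 3 at 21 d, the order of the wound keratins, and the part of cell composition in the rise was not tested beyond the ratio to keratinocyte markers.

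Across the 30 mice, the gene whose log2(CPM + 1) was most like the mean of the 4 was Krt42 (r = 0.797, Spearman 0.669), a type I keratin known from the mouse nail and the neighbour of Krt17. Without the 21 d mice r was 0.633, and it was 0.783 within the earlier and 0.834 within the later campaign. Krt42 was at 4972, 2636 and 1717 CPM in mice 1, 2 and 3 at 21 d and at 1238 to 1555 CPM at 0 h, a 2.18-fold difference (adjusted p = 0.207) that did not pass the test. It shares 1.7% of the windows of Krt17 within 2 mismatches. The next were Brinp3 (0.747), Thbs2 (0.702), Tmsb10 (0.701), Mal (0.686), Klra4 (0.685), 4732456N10Rik (0.676) and Sh3pxd2a (0.671), of which Brinp3 and Klra4 had a mean under 1 CPM. Without the 21 d mice r was 0.331 for Brinp3, 0.255 for Klra4 and 0.434 for Mal, and between 0.453 and 0.568 for the others of these 7. By single gene, the most alike were Lce3e, a late cornified envelope gene, for Krt6a (0.728), Rab31 for Krt6b (0.772) and Krt42 for Krt16 (0.725).

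Among themselves, the pairs most alike were Krt6b with Krt16 (r = 0.881) and Krt6a with Krt16 (0.813), and the least alike was Krt6a with Krt17 (0.440). Krt6a and Krt6b, the near copies, had r = 0.622 over all mice, 0.264 without the 21 d mice, 0.700 within the earlier and 0.810 within the later campaign. All these values share the libraries and, for 3 mice, the high levels at 21 d.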

How the data were processed

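RNA from 30 digits was sequenced by the authors as polyA-selected, single-end reads of 65 bases. The authors aligned the reads to Ensembl mouse genes with Bowtie, allowing 2 mismatches, and estimated expected counts per gene with RSEM 1.2.3, which the deposited table holds without normalization. The deposited TPM values come from the same RSEM run and are relative to all genes of a mouse. The submitters' processing notes also name CASAVA 1.8.2 and the build mm10. Of the expected counts 78.1% were whole, and all were rounded. Averages per time point were not used.

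Genes were tested with edgeR 4.0.16 (R 4.3.3): TMM factors, edgeR's filter on low counts by time, 1 fit of all mice without covariates, a quasi-likelihood F-test and Benjamini-Hochberg adjustment at 0.05. The 13793 genes tested hold 99.9% of counts. SE and intervals are those of the fitted log2 change. Ratios within a library used TPM (with 1 added for the ratio to markers) and two-sided exact permutation tests in Python 3.11.15. Sequences, exons and coordinates are from GRCm38 with the GENCODE annotation, and capitals and shared windows were found by script. No pair of mice at a time looked like a library deposited again (chi-square per degree of freedom 9.83 to 94.7 over 39 pairs). The methods were tested on simulated data.

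The 4 genes, the gene lists and the tests were chosen with earlier results of these data known. Named genes are the 4 members, at most 4 list genes per list and comparison by lowest adjusted p with genes that bear on a member, and the 8 genes most like the mean of the 4, with 1 per member. Of 182 listed genes 6 had no row and 1 was matched by another symbol. Replicates are numbered in the order of deposit. Alternatives were DESeq2 1.42.0 (size factors, test), other filters, a threshold of 0.01, campaign as a covariate, no left-foot mice, Krt6a and Krt6b summed, the mice of the compared times alone, limma 3.58.1 on log2(TPM + 1) and log2(TPM + 0.1), other references and pseudocounts, and each mouse left out. A single one of the likeness results is not reported here.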

Additional observations from a re-analysis of the deposited data

Results flagged for a closer look

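Among 27 measures examined in the 6 mice at 7 d, none of the 4 wound keratins had a mouse apart from the others, and 2 marker sums did, by the gap of the extreme mouse to the next as a share of the range (Dixon's test at 95%; chance flags about 1 in 20, or 1.35 here). The summed TPM of the neutrophil markers was highest in mouse 1, with a gap of 0.904 of the range. The summed TPM of the erythroid markers was highest in mouse 2, with a gap of 0.846 of the range.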

How the results depend on the processing

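No paired analysis was possible because the titles carry animal tags and dates in place of replicate numbers, and no 2 times compared share more than 1 tag or 1 date. Mouse 3 at 0 h and mouse 2 at 12 h share both. Whether these 2 libraries come from the same animal cannot be told from the titles, and the tests treat them as independent. Calls against 0 h numbered 4 in the fit reported, 2 with a threshold of 0.01 (Krt6a and Krt6b), and 2 with limma on log2(TPM + 1) and on log2(TPM + 0.1), in both cases Krt6b and Krt16 at 21 d. With each mouse left out in turn they ran from 0 to 4, and calls over the time course from 1 to 4, both lowest without mouse 1 of 21 d. With the mice of the compared times alone there were also 4 calls, but Krt6b and Krt17 at 14 d (adjusted p = 0.0463 each) took the place of Krt6a and Krt17 at 21 d. All 4 genes stayed higher at 21 d than at 0 h under every alternative run, at 1.13 to 2.73 without single mice removed. The values that changed sign all belong to comparisons that did not pass the test, and the cause was not tested. With limma Krt6b at 3 h against 0 h was at -0.10 for either pseudocount. The sum of Krt6a and Krt6b was at 0.21 for 7 d against 0 h, 0.07 for 6 h against 3 h and 0.09 for 3 d against 24 h, where Krt6a alone was at -0.18, -0.13 and -0.27. With campaign as a covariate Krt17 was at -0.06 for 6 h against 3 h and -0.01 for 3 d against 24 h. Without the left-foot mice Krt16 was at -0.19 for 7 d against 0 h and -0.38 for 7 d against 3 d, and Krt17 at -0.01 for 7 d against 3 d and 0.22 for 14 d against 7 d. With single mice left out, the ranges of edgeR's changes that cross 0 were, against 0 h, -0.25 to 0.20 for Krt6b and 0.00 to 0.28 for Krt17 at 3 h, -0.12 to 0.59 for Krt16 at 3 d and -0.23 to 0.02 for Krt6a at 7 d. For 6 h against 3 h they were -0.35 to 0.10 for Krt6a and -0.06 to 0.23 for Krt17. For 12 h against 6 h they were -0.25 to 0.64 for Krt6b and -0.34 to 0.24 for Krt16, and for 24 h against 12 h -0.46 to 0.19 and -0.53 to 0.06. For 3 d against 24 h Krt17 ran from -0.28 to 0.32, and for 7 d against 3 d Krt6b from -0.59 to 0.15 and Krt16 from -0.15 to 0.40. Against 0 h, ranges of the log2 ratio of Krt6b to Krt6a crossed 0 at 6 h, 12 h and 24 h. Those of Krt16 to Krt17 crossed 0 at 3 h, 12 h, 24 h and 14 d. Relative to keratinocyte markers, this held for Krt6a at 7 d, Krt6b at 6 h, and Krt17 at 3 h and 6 h. How small a change can be called with 3 mice a time, or 6 at 7 d, was not determined for the times before 21 d. A missing call there does not show that a level was unchanged.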
